A study of Mus musculus with 4 samples.

Results

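The 9 genes described here, Cps1, Otc, Ass1, Asl, Arg1, Arg2, Oat, Glud1 and Odc1, code for enzymes of citrulline, arginine and glutamine metabolism, out of 18193 genes measured. Every probe set whose platform annotation names 1 of these genes and no other was taken, which gave 15 of 45037 tested probe sets. A probe set is the array's unit of measurement, several short oligonucleotides that match 1 or more transcripts and are read out as 1 value. Of the 9 genes, 4 had several probe sets and 5 had 1. A further probe set, 1416239_at, names Ass1 together with Gm5424 and was left out.

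RNA came from crypt epithelium of the mouse jejunum, of mice on a C57BL/6J enriched background, and was hybridised to 4 Affymetrix arrays. The 2 knockout arrays are of YY1f/f; Vil-Cre-ERT2 mice, in which Cre recombinase, made in intestinal epithelium from the Villin promoter and switched on by tamoxifen, removes Yy1, the gene of a zinc finger transcription factor. The 2 control arrays carry the same treatment label, tamoxifen for 4 days, but their genotype is given only as control and the wording does not settle whether they received the drug. Any effect of Cre-ERT2 or of tamoxifen therefore cannot be told apart from that of Yy1 loss.

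In the small intestine, enterocytes take up glutamine and turn it by way of glutamate, pyrroline-5-carboxylate (P5C) and ornithine into citrulline, which leaves through the blood and serves the kidney as the precursor of arginine. The last steps lie in the mitochondrion: ornithine aminotransferase (Oat) makes ornithine, carbamoyl phosphate synthetase (Cps1) makes carbamoyl phosphate, and ornithine transcarbamylase (Otc) joins them. Argininosuccinate synthase (Ass1) and lyase (Asl) turn citrulline into arginine, arginases (Arg1 in the cytosol, Arg2 in mitochondria) split arginine into ornithine and urea, ornithine decarboxylase (Odc1) starts polyamine synthesis, and glutamate dehydrogenase (Glud1) links glutamate to the tricarboxylic acid cycle.

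Of the 15 probe sets, 7 were lower and 0 were higher in knockout crypts at an adjusted p under 0.05 (limma with Benjamini-Hochberg adjustment over all probe sets), and 8 were at an unadjusted p under 0.05. Over the whole array 9.09% of probe sets were lower and 10.9% higher by the same rule. The falls belonged to 5 genes, namely Otc, Asl, Arg2, Oat and Glud1, and were largest for Arg2. Cps1, Ass1, Arg1 and Odc1 had no probe set past the threshold. The number of lower probe sets was 3 without knockout replicate 1, 2 without control replicate 1 and 4 without control replicate 2. The median log2 difference was -0.40 over the 15 probe sets and 0.01 over all 45037. Both knockout arrays lay below both control arrays in 10 of the 15 probe sets, against 28.4% of all probe sets, and above both in 1, against 31.5%. Differences are knockout minus control on log2(intensity + 16), with the standard error (SE) of the fit, and means are given ± SD, each with n = 2 arrays per group.

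**Figure D1:**
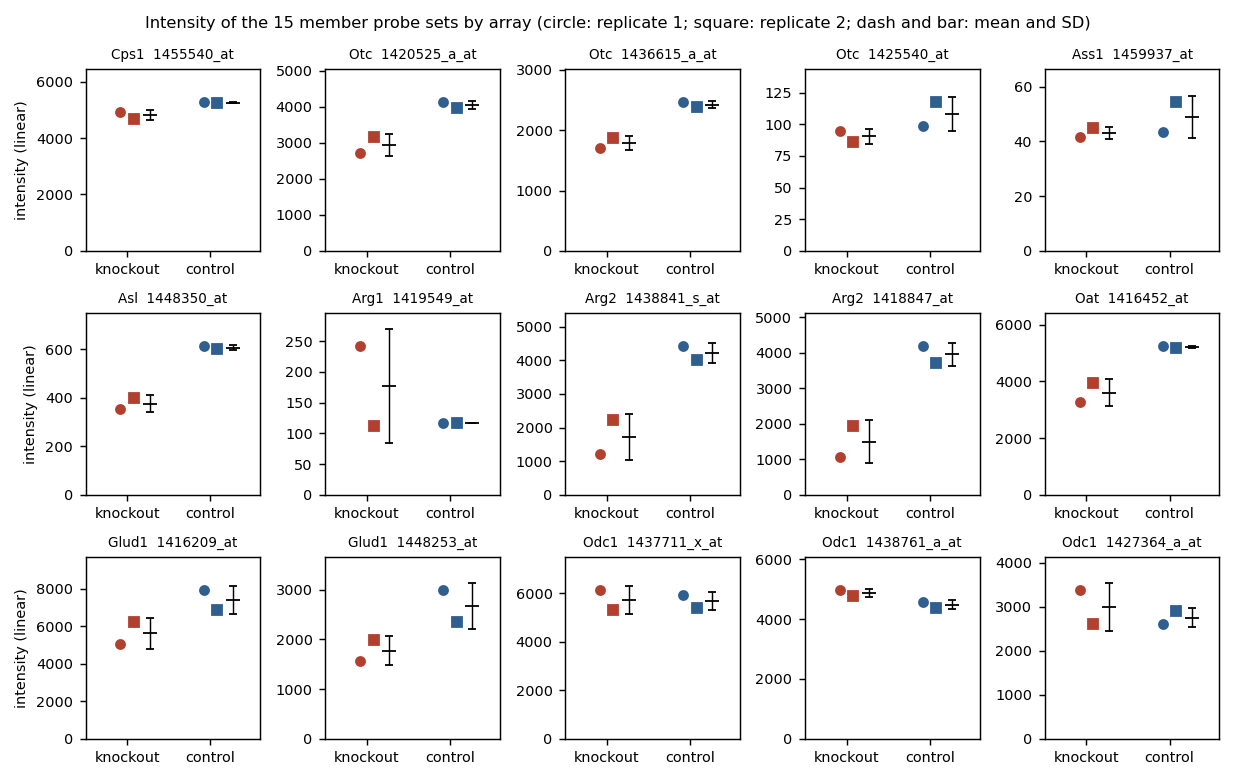
Intensity (linear axis from 0) of each of the 15 probe sets, with knockout arrays on the left and control arrays on the right of each panel, circles for replicate 1, squares for replicate 2 and a dash with bar for the mean and SD. The groups are furthest apart for Arg2, where knockout arrays lie between 1076 and 2211 and control arrays between 3718 and 4426, while the Odc1 and Ass1 panels show groups at similar levels.

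The 4 arrays had median intensities of 141 and 141 in knockout and 139 and 143 in control. The targeted gene was low in both knockout arrays: the brightest Yy1 probe set, 1422569_at, had 69.4 and 68.1 in knockout, against 1648 and 1681 in control (log2 difference -4.31 ± 0.10). The other 3 Yy1 probe sets also fell, and where they lie relative to the deleted part was not analysed here. The median of 27 control probe sets for Bacillus genes, 31.9 and 32.7 in knockout and 35.6 and 33.1 in control arrays, marks the background. The markers of epithelium were bright in all arrays, with Epcam at 9077 and 9624 in knockout and 10119 and 10334 in control. The log2 difference between the 3' and 5' control probe sets of Gapdh, a measure of RNA quality, was 1.71 and 1.65 in knockout and 1.44 and 1.40 in control arrays, so it was larger in both knockout arrays. For Actb the same measure was 0.33 and 0.29 in knockout and 0.28 and 0.24 in control arrays, a smaller gap in the same direction. This measure moves with every difference given below, and its part in them was not tested.

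Of the enzymes that make citrulline, Otc and Oat were called lower and Cps1 was not. Their differences were not tested against each other, and their 95% intervals overlap. Cps1, the enzyme that feeds ammonia into the pathway, was bright in every array. Its probe set 1455540_at had 4937 and 4693 in knockout, against 5278 and 5244 in control. Both knockout arrays were slightly below both controls, and the log2 difference of -0.13 ± 0.10 did not pass the test (limma adjusted p = 0.431). Its 95% interval ran from -0.36 to 0.10.

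Otc, which joins carbamoyl phosphate to ornithine, fell with both of its bright probe sets. With 1420525_a_at it had 2711 and 3150.0 in knockout, against 4129 and 3965 in control, a knockout mean at 72.4% of the control mean. With 1436615_a_at it had 1707 and 1877 in knockout, against 2467 and 2382 in control, or 73.9%. The groups did not overlap in either, and the differences were -0.47 ± 0.11 and -0.43 ± 0.10 (limma adjusted p = 0.0263 and 0.0253). The third probe set, 1425540_at, was dim, at 94.5 and 86.2 in knockout and 98.7 and 118 in control, and its difference of -0.22 ± 0.12 did not pass. Both calls for Otc ended when knockout replicate 1 (adjusted p = 0.117 and 0.110), control replicate 1 (0.132 and 0.131) or control replicate 2 (0.0979 and 0.0992) was left out, with the direction kept.

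Oat, which makes ornithine from P5C and glutamate, had 3273 and 3928 in knockout, against 5243 and 5189 in control, with its 1 probe set 1416452_at. The knockout mean of 3600 ± 463 was 69.0% of the control mean of 5216 ± 38.1. The groups did not overlap, and the 2 knockout arrays lay further from each other than the 2 control arrays. The fall of -0.54 ± 0.12 passed the test (limma adjusted p = 0.0188). It ended without knockout replicate 1 (0.0818), control replicate 1 (0.0935) or control replicate 2 (0.0875).

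The 250 bases before the gene start are shown for Otc and Oat, the 2 citrulline-forming genes that fell, because YY1 is known to bind sites with the core ATGGC. They come from RefSeq on the build GRCm38.p6, are written 5' to 3' on the gene's strand, and carry the core, searched on both strands, in capitals. The Otc window is chrX:10252055-10252304 on the + strand and the Oat window is chr7:132576399-132576648 on the - strand.
Otc: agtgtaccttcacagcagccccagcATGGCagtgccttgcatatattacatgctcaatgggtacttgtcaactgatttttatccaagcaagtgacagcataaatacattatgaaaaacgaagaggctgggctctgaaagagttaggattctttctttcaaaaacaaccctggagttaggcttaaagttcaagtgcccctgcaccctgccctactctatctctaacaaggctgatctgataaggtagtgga
Oat: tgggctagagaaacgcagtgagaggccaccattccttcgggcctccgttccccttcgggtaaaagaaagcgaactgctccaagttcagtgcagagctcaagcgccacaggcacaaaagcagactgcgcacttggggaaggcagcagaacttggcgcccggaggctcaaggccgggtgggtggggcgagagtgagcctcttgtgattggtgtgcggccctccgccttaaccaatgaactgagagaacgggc
The Otc window holds the core 1 time, starting at position -225 from the gene start, and the Oat window does not hold it. Of 32851 windows of the same length, 32.9% hold the core, and 4.57% hold the longer AGATGGC, likewise searched on both strands, which neither of these has. Windows were found for 5 of the 9 genes, and those of Ass1, Glud1 and Odc1 hold neither motif. A match describes letters only. The Otc window had a GC content of 43.6% and the Oat window 60.0%, beside a median of 52.4% over all windows.

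Glud1, which interconverts glutamate and 2-oxoglutarate, had 5044 and 6212 in knockout, against 7935 and 6883 in control, with probe set 1416209_at. That difference, -0.40 ± 0.14, did not pass (limma adjusted p = 0.0810). The second probe set, 1448253_at, had 1563 and 1981 in knockout, against 2996 and 2351 in control, and fell by 0.59 on the log2 scale (SE 0.16, limma adjusted p = 0.0395). In both, knockout arrays lay below control arrays, yet the control arrays differed from each other by 0.21 and 0.35 on the log2 scale, more than for any other member probe set brighter than the array median. The call for 1448253_at ended without knockout replicate 1 or control replicate 1, with a difference of -0.42 in each. For 1416209_at the difference was -0.25 without knockout replicate 1 and -0.55 without knockout replicate 2.

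Of the enzymes that turn citrulline into arginine, Asl fell and Ass1 was near background. Asl, which cleaves argininosuccinate, had 352 and 400.1 in knockout, against 613 and 599.7 in control, with its probe set 1448350_at. The knockout mean of 376 ± 34.0 was 62.0% of the control mean of 606 ± 9.56, and the groups were far apart relative to their spread. The difference of -0.67 ± 0.11 (limma adjusted p = 0.00602) was the member call that passed under each of the 12 alternative settings tried, with adjusted p between 0.00298 and 0.0418. Ass1, which makes argininosuccinate, had 41.6 and 44.8 in knockout, against 43.4 and 54.4 in control, with the 1 probe set that names it alone, 1459937_at. These levels lie close to the Bacillus medians and overlap (difference -0.13 ± 0.12, adjusted p = 0.515). The probe set shared with Gm5424 was also dim, at 84.2 and 64.6 in knockout and 51.8 and 57.7 in control (difference 0.35 ± 0.13, adjusted p = 0.112).

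Arg2, the mitochondrial arginase, fell furthest of all members. With 1438841_s_at it had 1227 and 2211 in knockout, against 4426 and 4004 in control, and with 1418847_at it had 1076 and 1928 in knockout, against 4193 and 3718 in control. Knockout means were 40.8% and 38.0% of control means, the groups did not overlap, and knockout replicate 1 was the lowest array in both. The differences were -1.34 ± 0.24 and -1.44 ± 0.24 (limma adjusted p = 0.00923 and 0.00706). With a prior variance that follows the intensity and is robust to outlying probe sets, neither passed (0.109 and 0.0863), and without control replicate 1 the probe set 1438841_s_at missed the threshold at 0.0531.

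Arg1, the cytosolic arginase that is abundant in liver and in some macrophages, stood apart in 1 array. Its probe set 1419549_at had 242 in knockout replicate 1 and 112 in knockout replicate 2, against 116 and 117 in control. The second knockout array was thus at the level of the controls, and the difference of 0.46 ± 0.28 did not pass (limma adjusted p = 0.322, 95% interval -0.20 to 1.11). Without knockout replicate 2 the value was 0.96 and without knockout replicate 1 it was -0.05, so the sign rests on 1 array. Of 8 myeloid markers measured, Cd14 was higher and Ptprc lower. The summed intensity of all 8 was 8340 and 8985 in knockout and 8453 and 8832 in control. Most of each sum came from Lyz2, at 7285 and 7977 in knockout and 7550 and 7845 in control, so the sum says little about the other markers. Knockout replicate 1 had the highest of the 4 values for 5 of the 8 markers and the lowest for 3, among them Lyz2, the brightest of the list. The part of myeloid cells in the Arg1 value was not tested. Of 5 hepatocyte markers measured, with summed intensities of 578 and 632 in knockout and 729.6 and 684 in control, Ttr was lower and none was higher.

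Odc1, the entry enzyme of polyamine synthesis, was bright and gave no call with any of its 3 probe sets. With 1437711_x_at it had 6144 and 5335 in knockout, against 5952 and 5420.4 in control. With 1438761_a_at it had 4972 and 4777 in knockout, against 4583 and 4371 in control, the 1 member probe set with both knockout arrays above both controls. With 1427364_a_at it had 3380.0 and 2599 in knockout, against 2598 and 2912 in control. The differences were 0.01 ± 0.12, 0.12 ± 0.10 and 0.11 ± 0.14 (limma adjusted p = 0.963, 0.457 and 0.671). Their 95% intervals reached from -0.26 to 0.28, from -0.11 to 0.35 and from -0.23 to 0.45. The value for 1437711_x_at turned negative without knockout replicate 1 (-0.09) or control replicate 2 (-0.06), and that for 1427364_a_at without knockout replicate 1 (-0.08).

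**Figure D2:**
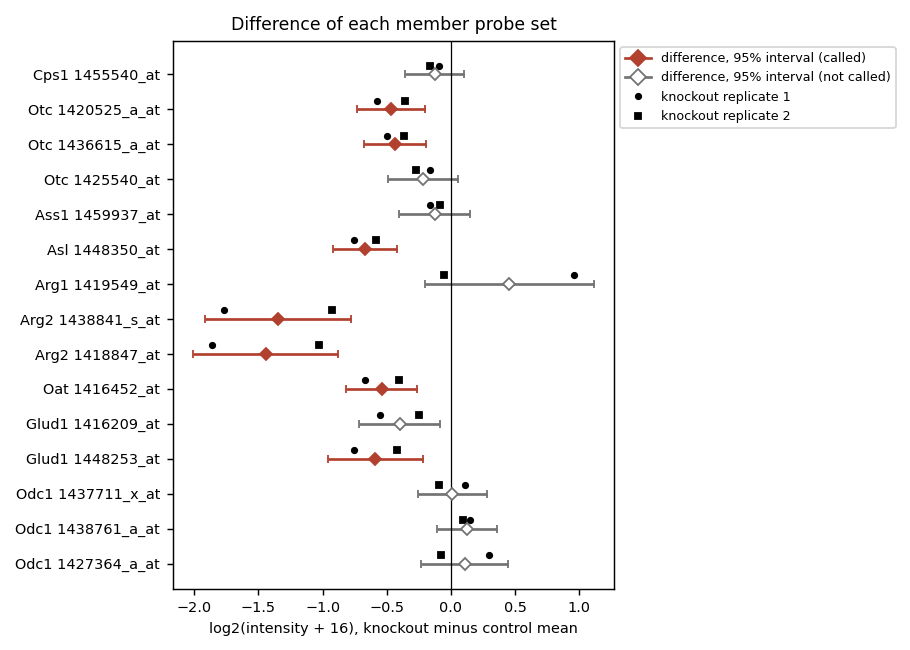
Difference of each of the 15 probe sets (knockout minus control mean on log2(intensity + 16)), with its 95% interval as a bar, filled red where called and open where not, and each knockout array as a small black mark. The 2 Arg2 probe sets lie furthest left, at -1.34 and -1.44, the 2 knockout arrays are widest apart for Arg1, and the Cps1, Ass1 and Odc1 intervals all cross 0.

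The 2 knockout arrays differed from each other. In all 7 probe sets that fell, knockout replicate 1 was lower than knockout replicate 2. Among the member probe sets not called, those of Ass1 and Glud1 (1416209_at) had the same order. Those of Cps1 (4937 and 4693), Arg1 (242 and 112) and Odc1 and the dim one of Otc had the opposite order. For Arg2 with 1418847_at the 2 arrays stood at -1.86 and -1.03 relative to the control mean on the log2 scale, and for Otc with 1420525_a_at at -0.57 and -0.36. Enterocyte markers had knockout replicate 1 below knockout replicate 2 in 11 of 11 measured genes. So did every measured marker of the epithelium as a whole and of goblet cells, among them Krt18 (6284 and 6332) and Agr2 (7105 and 7541), which were not called. Among crypt stem and progenitor markers, Lgr5, Ascl2, Olfm4 (3662 and 3332), Smoc2, Axin2 and Sox9 had the opposite order. Mki67 and Top2a (2573 and 2672) had knockout replicate 1 lower. The share of all probe sets with knockout replicate 1 below knockout replicate 2 was not computed. Of the 11 enterocyte markers 8 were lower and 0 higher, with a median log2 difference of -1.04, and Apoa1, Apoa4 and Fabp2 were not called. Their summed intensity was 42376 and 60318 in knockout, against 82864 and 81839 in control. The part of enterocyte content in the falls of the members was not tested. In bulk RNA of crypts, fewer enterocytes and less RNA per enterocyte cannot be told apart. Markers of the epithelium as a whole were not called in 7 of 7 genes (limma), with a median log2 difference of -0.12. Their summed intensities were 42100 and 46740 in knockout and 48042 and 48815 in control. Vil1, the 1 at an unadjusted p under 0.05, had 4000 and 5520 in knockout, against 6829 and 6754 in control. Its difference of -0.53 ± 0.155 narrowly missed the threshold (limma adjusted p = 0.0511). Crypt stem and progenitor markers had 1 lower and 1 higher of 8, Paneth cell markers 0 and 1 of 5, goblet cell markers 2 and 0 of 6, enteroendocrine markers 1 and 1 of 6, tuft cell markers 2 and 0 of 4, lymphocyte markers 1 and 0 of 6, and mesenchymal and endothelial markers 0 and 0 of 8. Of 3 pancreatic acinar markers none was called, nor was any at an unadjusted p under 0.05.

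**Figure D3:**
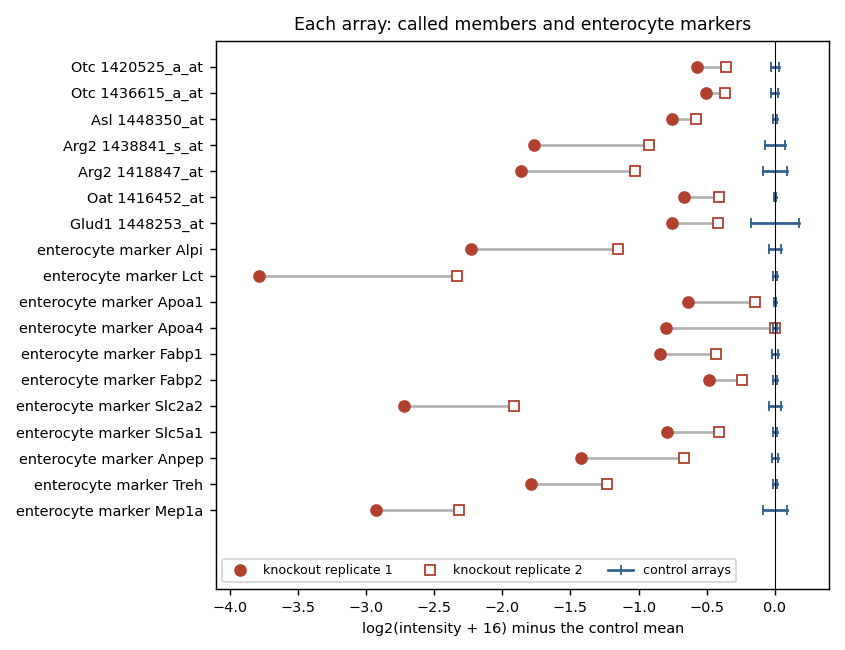
Distance of each knockout array from the control mean on log2(intensity + 16) for the 7 member probe sets that fell and for 11 enterocyte markers, with filled circles for knockout replicate 1, open squares for knockout replicate 2 and blue ticks for the 2 control arrays. Replicate 1 lies left of replicate 2 in every line, from Otc, at -0.50 and -0.37 with 1436615_a_at, to Lct, at -3.79 and -2.33.

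Around the 9 members, 7 lists of pathway genes held 60 genes, of which 51 had a probe set of their own and were each represented by the brightest one. Of the 51, 14 were lower and 11 higher, beside 10.4% lower and 12.6% higher over all 18193 genes. Their median log2 difference was 0.03, beside 0.01 over all genes. Of the 25 called genes, 11 kept their call under all 12 alternatives: Prodh, Got1, Slc25a12, Slc25a15 and Slc7a7 among the lower ones, and Asns, Got2, Cad, Gmps, Srm and Dohh among the higher ones. Without control replicate 1 the counts were 7 lower and 7 higher, without control replicate 2 they were 8 and 7, and without knockout replicate 1 the higher count was 7. Without control replicate 1 the calls of Gpt, Sat1, Oaz2, Dhps, Sirt3, Slc25a13, Slc38a2, Slc7a1, Slc7a9, Slc3a1 and Slc3a2 ended, at limma adjusted p between 0.0521 and 0.176. Those of Gpt, Sat1, Oaz2, Dhps, Sirt3, Sirt5, Slc25a13, Slc25a22, Slc7a1 and Slc7a9 ended without control replicate 2 (0.0614 to 0.224). Those of Sat1, Oaz2, Dhps, Sirt3, Sirt5, Slc25a13, Slc7a1 and Slc7a9 ended without knockout replicate 1 (0.0632 to 0.165), and those of Oaz2, Sirt3, Sirt5 and Slc25a13 without knockout replicate 2 (0.0558 to 0.0948). Slc6a19 kept its call without each array and missed it with the trended and robust prior (0.0825). With a pseudocount of 1, the calls of Oaz2, Sirt3 and Slc25a13 ended too (0.0520 to 0.0657).

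Mitochondrial carriers of the pathway were lower in 4 of 6 genes and higher in 0. Slc25a15, which exchanges ornithine for citrulline across the inner mitochondrial membrane, had 2158 and 2503 in knockout, against 3995 and 3633 in control (-0.71 ± 0.12, limma adjusted p = 0.00669). Its second probe set gave 391 and 433 in knockout, against 808 and 732 in control (-0.88 ± 0.11). The aspartate/glutamate carriers Slc25a12 (-0.68 ± 0.10) and Slc25a13 (-0.40 ± 0.11) and the glutamate carrier Slc25a22 (-0.69 ± 0.13) also fell. For Slc25a12 the call came from 1 of 3 probe sets, and the other 2 were dim and not called.

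Transporters of the plasma membrane went in both directions, with 5 lower and 2 higher of 10. Slc6a19, the apical carrier of neutral amino acids including glutamine, had 471 and 961 in knockout, against 2225 and 2064 in control (-1.65 ± 0.28, limma adjusted p = 0.00750). Slc3a1 (-1.26 ± 0.22) and Slc7a9 (-0.85 ± 0.22), which together form the apical carrier of cystine and dibasic amino acids, fell. For Slc7a9 the value was -0.48 without knockout replicate 1, and its call ended with the trended and robust prior (adjusted p = 0.147) and with pseudocounts of 1 (0.0647) and 64 (0.0517). Slc7a7 (-1.18 ± 0.17) and Slc3a2 (-0.78 ± 0.14), which form a basolateral exchanger of arginine and other cationic amino acids, fell as well. Slc7a1, an arginine uptake carrier of many dividing cells, had 2926 and 2717 in knockout, against 2074 and 2111 in control (0.43 ± 0.10), and rose with all 3 of its probe sets. Slc38a2, a glutamine carrier, rose by 0.56 ± 0.10 with 1 of its 3 probe sets, and the others, at 0.27 ± 0.11 and 0.35 ± 0.11, were not called.

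Enzymes of glutamine and glutamate split as well, with 4 higher and 2 lower of 9. Asns, which uses glutamine to make asparagine, had 2400.2 and 2239 in knockout, against 826 and 869.5 in control (1.43 ± 0.10, limma adjusted p = 0.000565). Cad, which starts pyrimidine synthesis with its own carbamoyl phosphate synthetase in the cytosol, had 425 and 397 in knockout, against 187 and 144 in control (1.25 ± 0.13, adjusted p = 0.00179), and rose with all 3 of its probe sets. Gmps, an amidotransferase of guanine nucleotide synthesis, rose by 0.78 ± 0.11. Of the aspartate aminotransferases, the mitochondrial Got2 rose by 0.76 ± 0.10, with 2 of its 4 probe sets called, and the cytosolic Got1 fell (-0.62 ± 0.10). Gpt, an alanine aminotransferase, fell with 1 of 2 probe sets (-0.93 ± 0.22), the other standing at -0.07 ± 0.16. Without knockout replicate 1 the first was -0.56, and its call ended with the trended and robust prior (adjusted p = 0.0745) and with a pseudocount of 1 (0.0505). Gfpt1, which uses glutamine to start hexosamine synthesis, was not called by its brightest probe set (-0.29 ± 0.10, adjusted p = 0.0840), while 4 of its 6 probe sets were lower. Glul, the glutamine synthetase, had 1001 and 1019 in knockout, against 1038 and 1083 in control (-0.07 ± 0.10, adjusted p = 0.692).

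Of 10 polyamine genes, 4 were higher and 1 lower. Srm, the spermidine synthase downstream of Odc1, had 956 and 897 in knockout, against 592 and 612 in control (0.61 ± 0.10, limma adjusted p = 0.00662). Dhps (0.47 ± 0.11) and Dohh (1.09 ± 0.10), which act in turn to form hypusine, a spermidine-derived residue, on the translation factor eIF5A, rose, Dohh with 1 of its 2 probe sets, and Oaz2 (0.40 ± 0.10), an antizyme that promotes the breakdown of ornithine decarboxylase, rose with 2 of 3. Sat1, which acetylates spermidine and spermine for breakdown and export, had 1877 and 2111 in knockout, against 2728 and 2849 in control (-0.48 ± 0.11).

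In the proline branch, Prodh, which oxidises proline to P5C, had 190.1 and 184 in knockout, against 348 and 284 in control (-0.70 ± 0.12, limma adjusted p = 0.00781), the 1 call among 4 genes. Aldh18a1, which makes P5C from glutamate, had 524 and 553 in knockout, against 559.6 and 684 in control (-0.20 ± 0.12, adjusted p = 0.330). Nags, whose product N-acetylglutamate activates CPS1, had 239 and 273 in knockout, against 280.5 and 296 in control (-0.16 ± 0.11, adjusted p = 0.363). Of the mitochondrial sirtuins listed with it, Sirt5, which deacylates CPS1, rose by 0.49 ± 0.12 and Sirt3 fell (-0.44 ± 0.11). None of 8 genes of nitric oxide and other arginine use was called by limma with its brightest probe set, 1 of them (Ddah1, which breaks down an inhibitor of nitric oxide synthases) was at an unadjusted p under 0.05, and 1 of the 5 Ddah1 probe sets was higher. Nos2, the inducible nitric oxide synthase, was dim at 92.0 and 108 in knockout and 81.2 and 93.4 in control. Hnf4a, a transcription factor of enterocytes, was at 6586 and 6853 in knockout and 7370 and 7364 in control (-0.13 ± 0.10, adjusted p = 0.410).

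**Figure D4:**
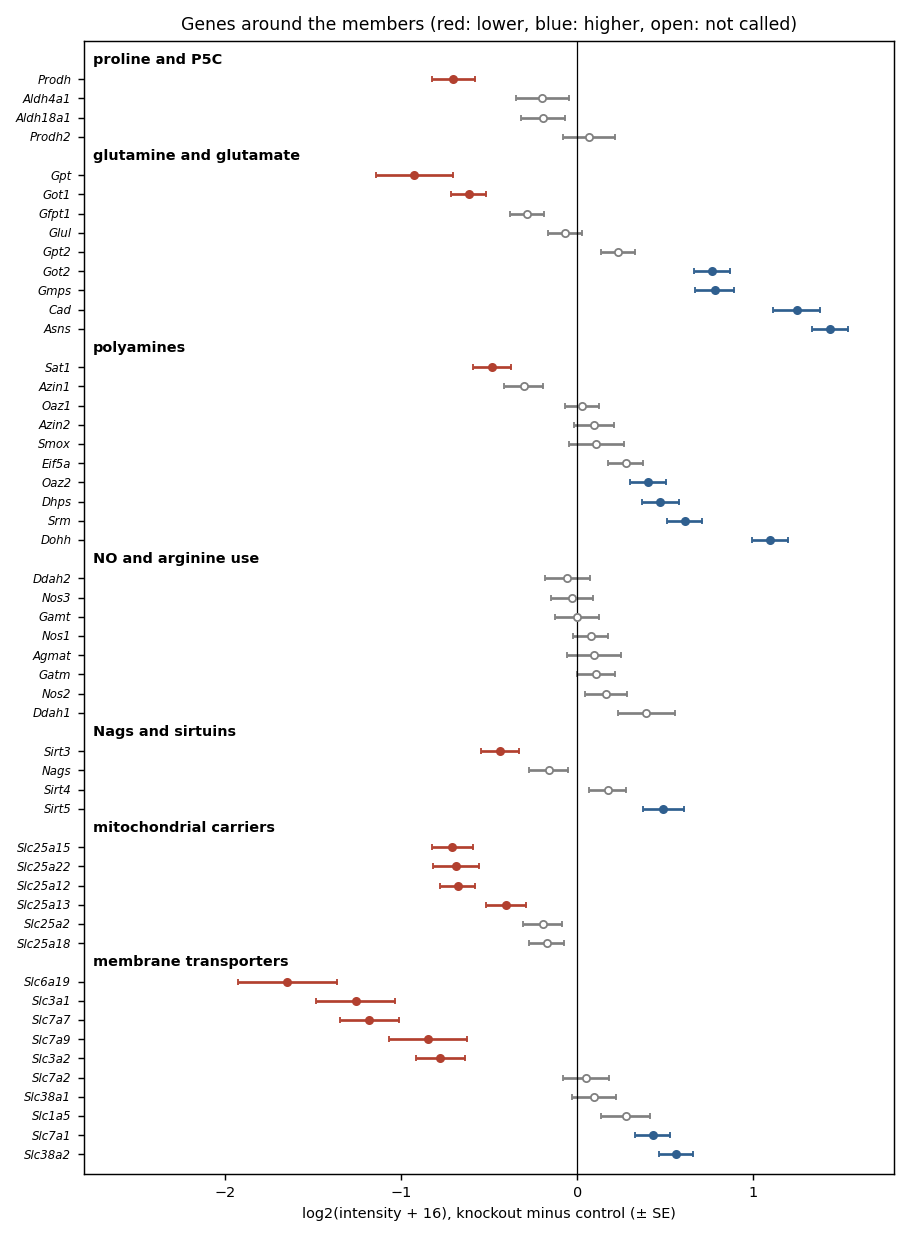
Difference of the 51 surrounding pathway genes (knockout minus control on log2(intensity + 16), bar ± SE), by list, with red filled points for lower, blue filled points for higher and open points for genes not called. The mitochondrial carriers lie left of 0, down to -0.71 for Slc25a15, while Asns at 1.43 and Cad at 1.25 are furthest right.

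The genes with the nearest 4-array pattern, by the root mean square difference of centred log2(intensity + 16) among 10634 genes with a mean above the array median, were Atp7a, Klf9 and Yipf6 for Cps1, at distances of 0.0024, 0.0079 and 0.0086. For Otc they were Ctdspl, Slc25a11 and Tes, at 0.0058, 0.0137 and 0.0149. For Odc1 they were Epc2, 2610035D17Rik and Zfp687, at 0.0063, 0.0124 and 0.0132. With 4 arrays many genes share such a pattern, so this is a description.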

How the data were processed

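The authors deposited 1 linear intensity for each probe set on each array. Biotin-labelled total RNA was hybridised by the manufacturer's procedure, per the labels' protocols, while how the probe signals were summarised and normalized is not given in the sources used here. Precision is limited by the number of arrays. Gene names came from the platform annotation, and RefSeq (GRCm38.p6) gave the current symbol for each Entrez ID. The table held 45101 probe sets, among them 64 array controls, 34945 with 1 gene, 932 with several and 9160 without a listed gene.

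The titles give the group and the number of each biological replicate. Nothing says more about their separate origin, so p-values set each difference only against the spread between these arrays. For each probe set, the fit estimates that spread largely from all probe sets together. The comparison of knockout with control used limma's lmFit and eBayes (version 3.58.1, under R 4.3.3) on log2(intensity + 16) (no covariate, all 45037 probe sets that are not array controls, Benjamini-Hochberg adjustment, 7.34 degrees of freedom). The fit was also run on simulated data, with independent noise whose variances were drawn from its own prior. Such data share the assumptions of the fit, so they cannot show how accurate the calls given here are. Without moderation, that is, with the spread of each probe set taken alone, 2 of all 45037 probe sets passed. With it 4092 were lower and 4921 higher, so the calls given here rest largely on the spread shared over probe sets. Fold changes on this scale understate those of dim probe sets.

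The members and the gene lists were chosen with earlier results of these data known. All member probe sets are named. From each surrounding list the called genes are named, with Nags, Slc25a15, Glul, Aldh18a1, Amd1, Srm, Sat1, Nos2 and Hnf4a always where measured. Amd1 had no probe set naming it alone. Marker genes were named after their values were seen. Of 12 marker lists, Prss1, Amy2a5, Pnlip, Sis, Ccnb1 and Serpina1a were among those without one. Some listed genes are not reported here. Alternatives were other pseudocounts, scalings, priors and filters, a replicate block, 1 probe set per gene and each array left out. With an array left out, 1 group holds 1 array and its spread is not measured. Calls and p-values from those fits rest on the other group and on the spread shared over probe sets.

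Replicate numbers are shared between the groups. Same-numbered arrays deviated from their group means with a correlation of 0.0957 over probe sets, so the numbers were not taken to pair the arrays.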

Additional observations from a re-analysis of the deposited data

How the results depend on the processing

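The 7 lower member probe sets became 4 with a pseudocount of 1 and between 2 and 8 with 1 array left out. With 1 probe set per gene in the fit, 4 of 9 were lower. The 0 higher member probe sets stayed 0 in every setting that kept all 4 arrays. The 14 lower surrounding genes ranged from 7 to 12 and the 11 higher ones from 7 to 9 with an array left out, and 6 were higher when each gene was represented by its dimmest probe set. Of all probe sets, 4092 were lower and 4921 higher; with 1 array left out these counts ranged from 1949 to 3908 and from 2056 to 4629, and with 1 probe set per gene they were 1992 and 2442, over fewer tests. With the replicate block, 7 member probe sets, 14 lower and 12 higher surrounding genes, and 4536 lower and 5425 higher probe sets were called. The block moved no member across the threshold.

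The directions of Cps1, Otc, Asl, Arg2, Oat and Glud1 held under each alternative that gave a value, while the difference of Arg1 was -0.0514 without knockout replicate 1 and 0.962 without knockout replicate 2. With 1 array left out, Odc1 ranged from -0.0901 (without knockout replicate 1) to 0.113 with 1437711_x_at, which was also negative without control replicate 2 (-0.0559), and from -0.0809 (without knockout replicate 1) to 0.296 with 1427364_a_at. These values come from fits with 1 array in a group, so they are given as sizes of difference only. The calls of Otc and Glud1 also missed the threshold with a pseudocount of 1, at adjusted p of 0.0533 and 0.0514 for Otc and 0.0726 for Glud1. The cause of these changes was not tested. Low signal over background limits Ass1, which the filter on group means removed, and the dim Otc probe set.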
